A study of Mus musculus with 6 samples.

Results

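Bile duct cells turn the thin fluid made by hepatocytes into a bicarbonate-rich bile, and 10 genes of that secretory machinery were examined in injured ducts with and without Klf5, a zinc-finger transcription factor. They are 3 potassium channel genes (Kcnq1, Kcne3, Kcnn4), 3 chloride channel genes (Ano1, Cftr, Gabrp), 2 ion carriers (Slc4a2, Slc12a2), the water channel Aqp1 and the secretin receptor Sctr. All 10 were found by symbol among the 24404 genes of the deposited table. They were selected on function, with differences between Klf5 LKO and control already known for some of them. Their differences are therefore given as a description, with no p-value, and support no statement about the pathway.

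The libraries came from biliary epithelial cells of adult C57BL/6 mice after 1 week of injury with DDC (diethoxycarbonyl-dihydrocollidine), a compound that damages bile ducts. The 3 Klf5 LKO libraries had the genotype Alfp-CreTg/+;Klf5flox/flox and the 3 control libraries Alfp-Cre+/+;Klf5flox/flox, so every animal carried the floxed Klf5 gene and only the Klf5 LKO group carried Cre. The Alfp promoter drives Cre in the fetal liver epithelium, from which both hepatocytes and bile duct cells arise, so recombination is not limited to ducts and not limited to the injury. The controls lacked Cre, and an effect of Cre alone cannot be told apart from the loss of Klf5. No uninjured mice were analysed here, the sex of the mice and the way the cells were isolated are not given in the labels, and the labels do not say that each library is a separate animal, so the spread between libraries may be partly technical.

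In the textbook account of ductal secretion, secretin binds its receptor on the cell's basal side, cyclic AMP rises, and the chloride channel encoded by Cftr opens on the side facing the duct. The anion exchanger encoded by Slc4a2 then trades chloride for bicarbonate, and water follows, in part through aquaporins. A second route runs through ATP and calcium and opens the calcium-activated chloride channel encoded by Ano1. Potassium channels let potassium leave the cell and so keep up the electrical force that drives chloride out.

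Sequencing depth was 11726934 to 24784167 reads assigned to genes per library. Values are normalised read counts, that is, reads divided by 1 size factor per library. In bulk RNA, fewer cells of a kind and less RNA per cell cannot be told apart. Klf5 itself held 977, 1192 and 1183 in Klf5 LKO libraries 1 to 3 and 2056, 2018 and 2316 in control libraries 1 to 3, lower in every Klf5 LKO library. These are counts per gene and may include exons outside the deleted part. The source of the Klf5 reads that remained in Klf5 LKO was not tested. Biliary markers were abundant, led by Spp1, and the sum over 8 of them was 396500 to 452191 in Klf5 LKO and 455603 to 573695 in control, with no overlap between groups. Of the 8, 7 were lower in Klf5 LKO. The part of a lower biliary RNA content in the falls described below was not tested. Hepatocyte markers summed to 9536 to 13342 and 10039 to 13262, led by Alb. Leukocyte markers, led by Cd74, varied widely within both groups, from 7654 to 19990 in Klf5 LKO and 4499 to 26428 in control. Kupffer cell and macrophage markers summed to 1103 to 1577 in Klf5 LKO and 1470 to 1648 in control, led by Csf1r (868 to 1547). Of these, Clec4f and Vsig4 were at 0 in every library. Stellate cell and fibroblast markers, led by Col1a1, summed to 34.1 to 86.3 in Klf5 LKO and 15.6 to 52.8 in control. Among them Col3a1, Lrat and Des were at 0 in every library, as were 5 of 6 erythrocyte markers, all but Alas2.

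All 10 genes passed the filter on low values (mean over all 6 libraries at least 10), as did 13490 genes in all. In the limma fit over those genes, at a Benjamini-Hochberg adjusted p under 0.05, 5 of the 10 were called. Kcnq1, Gabrp, Kcnn4 and Ano1 were lower in Klf5 LKO and Sctr was higher. Of all tested genes 0.652% were called, 0.489% as lower and 0.163% as higher, and since these differences helped to choose the 10 genes nothing is read from the comparison. DESeq2 on the recovered reads called 6 of the 10, the same 5 and Cftr, against 2.48% of all genes. For 6 of the 10 the ranges of both groups lay apart, against 15.6% of all genes. The other 4, Kcne3, Slc4a2, Slc12a2 and Aqp1, overlapped.

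**Figure D1:**
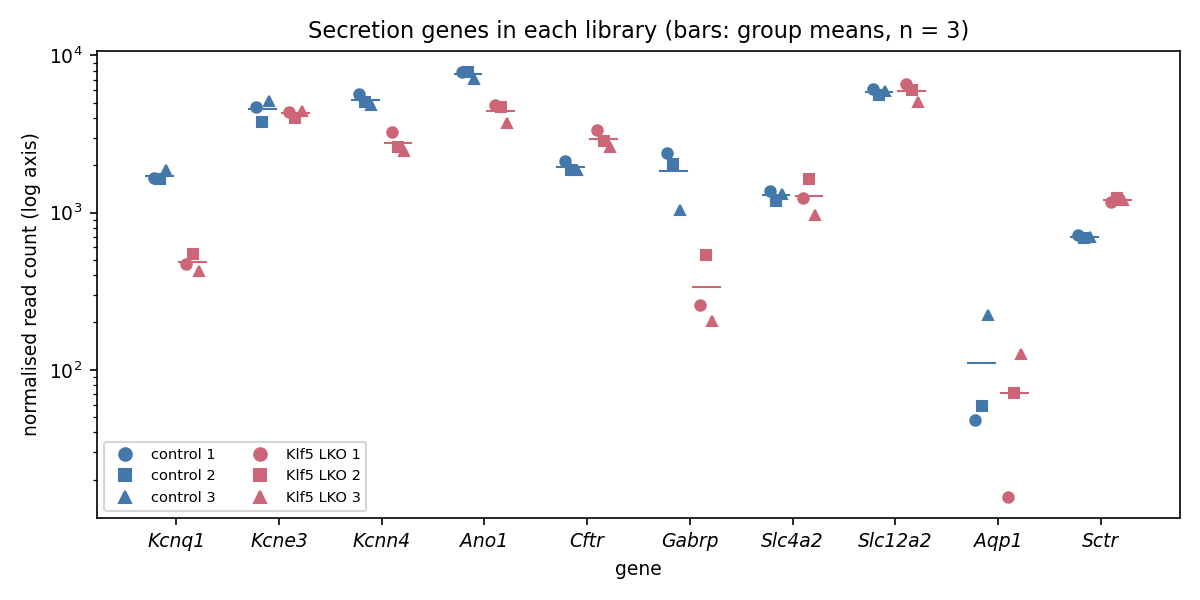
Normalised read count (log axis) of each of the 10 secretion genes in the 3 control (blue) and 3 Klf5 LKO (red) libraries, with a symbol for each replicate number and a bar at each group mean. Kcnq1, Kcnn4, Ano1 and Gabrp lie lower in every Klf5 LKO library, Sctr and Cftr lie higher, and the other 4 genes overlap.

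Among the potassium channels, Kcnq1 fell and its partner subunit Kcne3 was not called. Kcnq1 codes for the pore of a channel that cyclic AMP can activate in epithelia. It held 1656, 1641 and 1853 in control libraries 1 to 3 and 474, 544 and 426 in Klf5 LKO libraries 1 to 3. The highest Klf5 LKO library was thus well below the lowest control library. The log2 difference was -1.84 (SE 0.15, 95% confidence interval -2.18 to -1.50), a mean of 1717 ± 119 against 481 ± 59.4 (SD, n = 3 each) and 3.57-fold lower in Klf5 LKO. Of the 5 called genes, Kcnq1 alone was called whichever single library was left out, with log2 differences from -1.93 to -1.75.

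Kcnq1 (chromosome 7, 143106362 to 143427042, plus strand, mm10) shares its locus with the antisense transcript Kcnq1ot1, and 121 bases of their exons overlap in GENCODE M21. The library kit does not keep strand, so reads in that overlap could be assigned to either gene. Kcnq1ot1 had 2968, 2820 and 2551 in the controls and 3118, 2557 and 2977 in Klf5 LKO, and it did not pass (limma log2 difference 0.05, adjusted p = 0.923).

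Kcne3 codes for the small beta subunit that holds the Kcnq1 pore open at resting voltage. It held 4692, 3766 and 5154 in the controls and 4359, 4010 and 4452 in Klf5 LKO. The Klf5 LKO values all fell inside the control range. Its log2 difference was -0.08 (SE 0.14, interval -0.37 to 0.22). Of the Kcne genes it was the one with more than trace reads, since the highest single value among Kcne1, Kcne2, Kcne4 and Kcne1l was 4.06. Within a library, the ratio of Kcnq1 to Kcne3, each per kilobase of exon, was 0.153, 0.189 and 0.156 in the controls and 0.0473, 0.0590 and 0.0416 in Klf5 LKO. This ratio does not depend on the scaling of the libraries, and its Klf5 LKO values lay below all control values.

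Kcnn4 codes for the intermediate-conductance potassium channel that calcium inside the cell opens. It fell from 5697, 5045 and 4867 in control to 3259, 2599 and 2463 in Klf5 LKO. All Klf5 LKO libraries were below all controls. The log2 difference was -0.91 (SE 0.14, interval -1.21 to -0.62), or 1.89-fold lower. Because the fall of Kcnq1 was steeper, Kcnn4 was 2.75, 2.46 and 2.10 times Kcnq1 per kilobase in control libraries 1 to 3 and 5.50, 3.82 and 4.63 times in Klf5 LKO. These ratios depend on the length used. With the longest coding transcript, mean levels per kilobase of Kcnn4 and Kcnq1 were 2614 and 567 in the controls, against 1394 and 159 in Klf5 LKO, which makes the ratios larger in both groups.

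Kcnn4 is also known from lymphocytes and macrophages, and leukocyte transcripts varied between these libraries. The 10 leukocyte markers summed to 26428, 15136 and 4499 in the controls and 19990, 7654 and 9319 in Klf5 LKO. Of the 8 that were tested 7 were lower in Klf5 LKO and 0 were called. Control 3 had the lowest leukocyte sum of the 6 libraries and a Kcnn4 value of 4867. Cd74 made up most of each sum, and single markers differed in order. Klf5 LKO 2 was lower than control 3 for Ptprc (12.7 against 16.3), Laptm5 (24.6 against 48.8), Coro1a, Cd79a, Tyrobp and Fcer1g. It was higher for Cd52 (17.9 against 15.2) and Cd74 (7572 against 4357). With the mean log2 level of the 10 markers as a term in the fit, the log2 difference of Kcnn4 was -0.83 and it was called. The part of leukocyte RNA in the Kcnn4 values was not tested further.

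**Figure D2:**
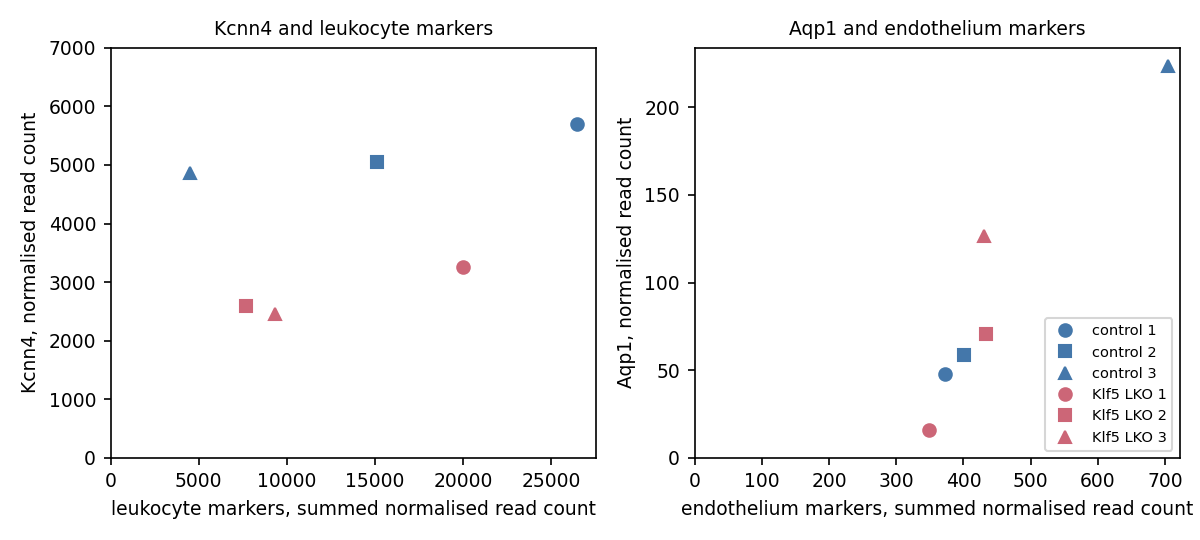
Left, Kcnn4 against the sum of 10 leukocyte markers, and right, Aqp1 against the sum of 8 endothelial markers, both axes as normalised read counts, 1 point per library (blue control, red Klf5 LKO). Kcnn4 is lower in all Klf5 LKO libraries. The leukocyte sums, mostly Cd74, overlap between the groups, and the part of leukocyte RNA was not tested further. The library with the highest Aqp1, control 3 at 224, also has the highest endothelial sum, 704.

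Among the chloride channels, Gabrp and Ano1 fell while Cftr had higher values in Klf5 LKO. Gabrp codes for the pi subunit of the GABA-A receptor, a ligand-gated chloride channel found in several epithelia. It held 2404, 2047 and 1040 in the controls and 260, 540 and 204 in Klf5 LKO. The groups did not overlap, but both were wide: the highest control was 2.31 times the lowest, and the highest Klf5 LKO library 2.64 times the lowest. The log2 difference was the most negative of the 10 genes, -2.49 (SE 0.36, interval -3.27 to -1.71), or 5.61-fold lower. It ranged from -2.90 without Klf5 LKO 2 to -2.20 without Klf5 LKO 3.

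For Gabrp the authors' deposited table gives a much smaller difference, -0.87 (SE 0.21), about the size of its value for Kcnn4, -0.82. The cause of that gap was not tested. DESeq2 on the recovered reads gave -2.45 for Gabrp. For Kcnq1 the authors' deposited table gives -1.60 and for Ano1 -0.70, closer to the limma values. For Aqp1 it gives -0.17, against -0.70 by limma. None of the other GABA-A receptor subunits passed the filter. Of 13 listed, 7 had 0 reads in every library, and the highest single value was 13.4, for Gabrd in Klf5 LKO 2. By mean level the highest was Gabre, from 2.03 to 5.96. In these libraries 0 reads allow a normalised count of up to 2.24 to 4.74, which covers counting error only.

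Ano1 codes for a chloride channel that opens on a rise in cell calcium. It held 7803, 7837 and 7032 in the controls and 4839, 4705 and 3718 in Klf5 LKO. The groups lay apart, with the highest Klf5 LKO library below the lowest control. The log2 difference was -0.78 (SE 0.13, interval -1.07 to -0.50), or 1.72-fold lower. It ranged from -0.85 without Klf5 LKO 1 to -0.66 without Klf5 LKO 3.

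Cftr codes for the chloride channel that cyclic AMP and protein kinase A open, the one mutated in cystic fibrosis. It held 2126, 1871 and 1866 in the controls and 3343, 2836 and 2605 in Klf5 LKO. Every Klf5 LKO library was above every control. The log2 difference was 0.58 (SE 0.13, interval 0.28 to 0.87), or 1.49 times the control level. It was not called by limma and was called by DESeq2.

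The mix of these 3 chloride channel transcripts therefore differed between the groups, which follows from the single differences above. Other chloride channel genes were left out of this mix, among them Ano6, at a mean of 656 per kilobase in the controls. Per kilobase, Ano1 was 4.56, 5.21 and 4.69 times Cftr in control libraries 1 to 3 and 1.80, 2.06 and 1.77 times in Klf5 LKO. The summed level of the 3 chloride channels per kilobase was 2235, 2102 and 1675 in the controls and 1282, 1279 and 992 in Klf5 LKO. Ano1 made up a similar part of that sum in both groups, 61.0% ± 5.77 in the controls and 59.8% ± 0.78 in Klf5 LKO (SD, n = 3 each). The part of Gabrp was 26.4% ± 7.06 in the controls and 8.20% ± 3.73 in Klf5 LKO. That of Cftr was 12.7% ± 1.49 in the controls and 32.0% ± 2.97 in Klf5 LKO.

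**Figure D3:**
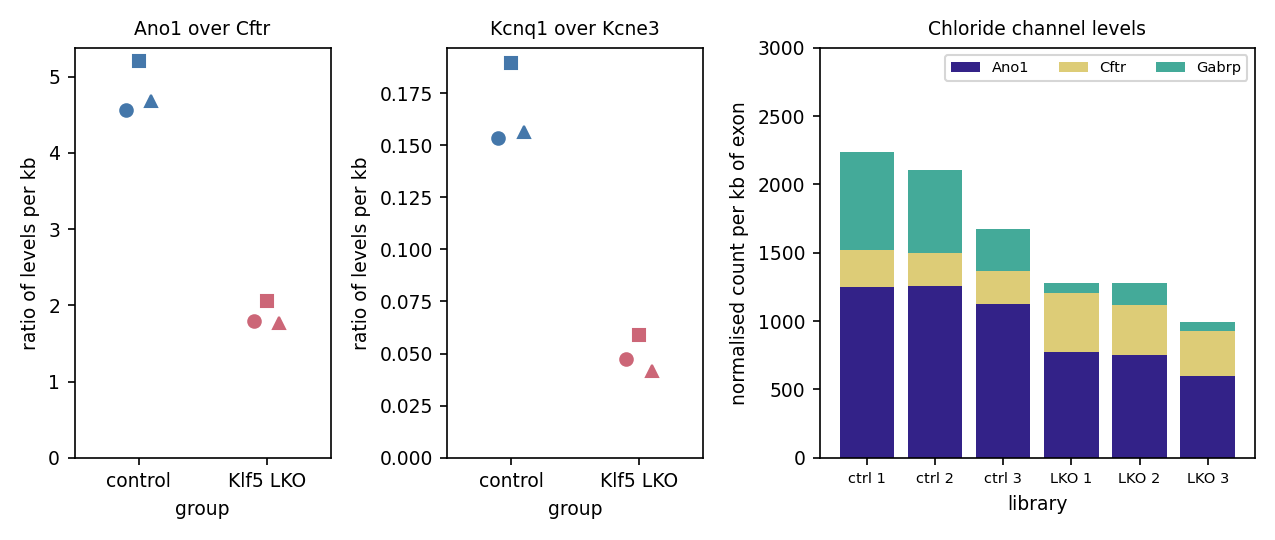
Left and middle, ratio of Ano1 to Cftr and of Kcnq1 to Kcne3 in each library, from levels per kilobase of exon (circle, square and triangle for replicates 1, 2 and 3). Right, stacked levels of the 3 chloride channels in each library. Both ratios are lower in all Klf5 LKO libraries, and the Gabrp part shrinks while the Cftr part grows.

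The promoter stretches of the called channel genes, with Cftr for contrast, are printed because Klf5 belongs to a family of factors that bind CACCC and GC boxes. Each line gives bases before the RefSeq transcription start on GRCm38.p6, 5′ to 3′ on the strand of the gene, with annotated exon bases left out. Capitals mark CCNCNCCC, searched on both strands, so that a match on the other strand appears as its reverse complement, and neighbouring matches may overlap. The table used for these sequences held 7 of the 10 genes, and Kcnq1, Sctr and Slc12a2 are not shown. The stretches are Kcnn4 at chr7:24370013-24370262 (plus strand), Ano1 at chr7:144738593-144738823 (minus strand), Gabrp at chr11:33578960-33579207 (minus strand) and Cftr at chr6:18170437-18170686 (plus strand). The Ano1 stretch lies inside the gene as annotated in GENCODE M21 (144588549 to 144751974). It therefore precedes a start within the gene, and not its outermost start.
Kcnn4: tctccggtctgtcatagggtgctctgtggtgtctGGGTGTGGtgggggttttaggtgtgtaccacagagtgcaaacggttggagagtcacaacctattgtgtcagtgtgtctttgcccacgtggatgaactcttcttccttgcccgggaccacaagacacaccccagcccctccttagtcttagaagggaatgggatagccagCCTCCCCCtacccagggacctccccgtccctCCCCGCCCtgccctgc
Ano1: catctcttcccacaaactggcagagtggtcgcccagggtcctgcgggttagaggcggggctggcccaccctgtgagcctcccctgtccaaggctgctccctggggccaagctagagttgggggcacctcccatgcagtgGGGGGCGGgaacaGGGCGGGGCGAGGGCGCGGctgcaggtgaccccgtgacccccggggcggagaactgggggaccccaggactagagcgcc
Gabrp: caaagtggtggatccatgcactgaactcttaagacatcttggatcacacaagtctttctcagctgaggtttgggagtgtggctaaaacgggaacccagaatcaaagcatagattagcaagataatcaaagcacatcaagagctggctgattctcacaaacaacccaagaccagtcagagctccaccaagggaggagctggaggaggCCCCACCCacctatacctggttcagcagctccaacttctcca
Cftr: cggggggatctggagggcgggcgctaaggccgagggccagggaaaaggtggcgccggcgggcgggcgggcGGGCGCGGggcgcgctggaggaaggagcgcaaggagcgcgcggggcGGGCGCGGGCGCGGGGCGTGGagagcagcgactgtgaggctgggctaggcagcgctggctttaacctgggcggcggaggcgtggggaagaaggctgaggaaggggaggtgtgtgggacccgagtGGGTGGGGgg

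In the full window of 250 bases before the start, the letters occurred 3 times for Kcnn4, 5 times for Ano1, 1 time for Gabrp and 5 times for Cftr. They occurred in 45.9% of the 32851 promoter windows of this length in the table, so a match is common. Genes whose groups overlapped held matches too: 3 for Aqp1, 5 and 2 in the windows of Slc4a2, and 0 and 2 in those of Kcne3. In all, 8 of the 9 windows held a match. Matches were thus present in genes that fell, in Cftr and in genes that were not called. The share of G and C was 72.0% for Ano1, 76.4% for Cftr, 58.8% for Kcnn4 and 49.2% for Gabrp, against a median of 52.4% over all windows, and a window rich in G and C holds such letters more easily. No binding was measured, and a match is not a site.

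Both ion carriers overlapped between the groups. Slc12a2 codes for the sodium-potassium-chloride carrier that loads chloride into the cell from the blood side. It held 6102, 5576 and 5921 in the controls and 6608, 6034 and 5040 in Klf5 LKO. Its log2 difference was -0.00 (SE 0.13, interval -0.28 to 0.28). Slc4a2, the anion exchanger, held 1374, 1190 and 1310 in the controls and 1238, 1628 and 960 in Klf5 LKO. The Klf5 LKO libraries lay on both sides of the control range, and the log2 difference was -0.05 (SE 0.18, interval -0.45 to 0.35). The intervals leave room for changes of that size, so equal levels are not shown. Exons of Slc4a2 overlap those of Fastk on the opposite strand by 1141 bases, and Fastk held 1246 to 1344 in the controls and 1321 to 1610 in Klf5 LKO.

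Aqp1, a water channel of bile ducts that is also abundant in endothelium, was the lowest and most variable of the 10. It held 47.8, 58.5 and 224 in the controls and 15.6, 70.8 and 127 in Klf5 LKO. These come from 37 to 220 reads per control library and 19 to 119 per Klf5 LKO library. The groups overlapped, and the log2 difference of -0.70 (SE 0.75, interval -2.33 to 0.93) changed sign to 0.14 without Klf5 LKO 1 and was -0.01 without control 3. Of 8 endothelial markers, led by Egfl7, 5 were lower in Klf5 LKO and 0 were called by limma, and they summed to 373, 401 and 704 in the controls and 348, 434 and 431 in Klf5 LKO. Klf5 LKO 1 was the lowest and control 3 the highest library for Aqp1 and for the endothelial sum, while single markers of the list differed in order: Tek was highest in Klf5 LKO 1 (78.1) and Lyve1 in Klf5 LKO 3 (59.6). The part of endothelial RNA in the Aqp1 values was not tested further, and with the endothelial markers as a term the difference was -0.20.

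Sctr, the receptor through which secretin starts the response, rose. It held 717, 684 and 701 in the controls and 1170, 1243 and 1203 in Klf5 LKO. It had the tightest libraries of the 10, with coefficients of variation of 2.35% in the controls and 3.04% in Klf5 LKO. The log2 difference was 0.78 (SE 0.14, interval 0.48 to 1.09), or 1.72 times the control level, and it ranged from 0.76 to 0.80 when 1 library was left out. Sct, which codes for secretin itself, was low, from 6.71 to 32.2 over the 6 libraries.

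The calls of these genes depended on single libraries. Without control 1 or without control 2, the shallowest library, Kcnq1 was the only one of the 10 called. Without Klf5 LKO 3, Kcnq1, Kcnn4 and Gabrp were called, with Ano1 at -0.66 and Sctr at 0.78. Without Klf5 LKO 2 or control 3 only the call of Sctr ended, at 0.76 and 0.78. Without control 1, Kcnn4, Gabrp, Ano1 and Sctr stood at -0.85, -2.25, -0.76 and 0.80, and without control 2 at -0.94, -2.37, -0.75 and 0.76. With the leukocyte markers as a term, the calls of Ano1 (-0.75) and Sctr (0.77) ended, and 51 of all tested genes were called. Directions of the 5 called genes and of Cftr were the same under all 18 alternatives. The groups of these genes did not overlap, so leaving out 1 library could not reverse a direction.

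**Figure D4:**
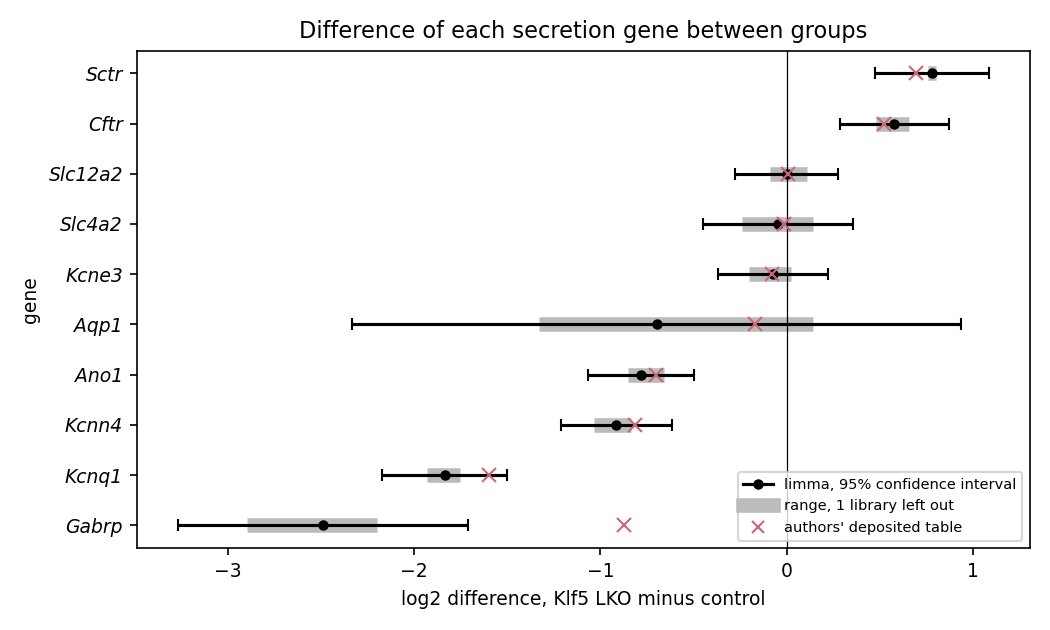
Log2 difference (Klf5 LKO minus control) of each of the 10 genes, with the limma estimate and its 95% confidence interval (black), the range when each of the 6 libraries is left out in turn (grey) and the value in the authors' deposited table (cross). The cross of Gabrp, at -0.87, lies far from its limma value of -2.49, and Aqp1 has the widest interval.

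To compare genes with each other, values were divided by exon length. In control, Kcne3 was the highest at 2551 ± 397 per kilobase (SD, n = 3), above 98.1% of the 12948 tested genes with a length. It was followed by Ano1 (1210 ± 72.9), Kcnn4 (1017 ± 85.4), Gabrp (542 ± 209), Slc12a2 (537 ± 24.5), Kcnq1 (419 ± 29.0), Sctr (348 ± 8.19), Cftr (252 ± 19.1), Slc4a2 (155 ± 11.2) and Aqp1 (41.9 ± 37.5). Each neighbouring pair in that order was apart in all 3 control libraries except Gabrp and Slc12a2, whose ranges overlapped. In Klf5 LKO the order was Kcne3 (2402 ± 131), Ano1 (708 ± 98.0), Sctr (599 ± 18.2), Kcnn4 (542 ± 83.2), Slc12a2 (540 ± 72.6), Cftr (377 ± 48.6), Slc4a2 (153 ± 40.3), Kcnq1 (118 ± 14.5), Gabrp (99.1 ± 53.3) and Aqp1 (27.0 ± 21.1). There the ranges of Ano1 and Sctr, Sctr and Kcnn4, Kcnn4 and Slc12a2, Slc4a2 and Kcnq1, and Kcnq1 and Gabrp overlapped. Against all genes Kcnq1 went from the 82.2 percentile in control to the 51.1 percentile in Klf5 LKO, and Sctr from 78.7 to 87.9. The order depended on the length used. With the longest coding transcript in place of all exons, it was Kcne3, Kcnn4, Ano1, Slc12a2, Kcnq1, Gabrp, Sctr, Cftr, Slc4a2 and Aqp1 in control. In Klf5 LKO it was then Kcne3, Kcnn4, Ano1, Slc12a2, Sctr, Cftr, Slc4a2, Kcnq1, Gabrp and Aqp1.

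By position, 4 of the 10 genes lie on chromosome 7: Kcnn4 (24370263 to 24386690), Kcne3 (100176502 to 100184869), Kcnq1 and Ano1 (144588549 to 144751974, minus strand). Kcnq1 and Ano1 are 1161507 bases apart. The others are Sctr on chromosome 1 (120006894 to 120063536), Slc4a2 on chromosome 5 (24423837 to 24440950), Cftr and Aqp1 on chromosome 6 (18170687 to 18322768 and 55336432 to 55348555), Gabrp on chromosome 11 (33550781 to 33578959, minus strand) and Slc12a2 on chromosome 18 (57878678 to 57946821).

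The genes whose pattern over the 6 libraries was most like that of a channel or the receptor were sought among genes with a mean of at least 100, by Pearson correlation of log2 values. For Ano1 they were Tff2 (r = 0.995), Pkm (0.994) and Hars2 (0.992), for Kcnn4 Grasp (0.997), Pglyrp1 (0.996) and Ttc39b (0.996), and for Sctr Krt23 (0.994), Serpina1c (0.991) and Dnajc17 (0.991). These points share their libraries and the group difference, so the likeness is a description. The sizes differed: Tff2, a trefoil peptide of mucus, had a log2 difference of -3.58 and the glycolytic enzyme gene Pkm -0.56, against -0.78 for Ano1.

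The rest of the secretory pathway was covered by 126 other genes, listed by role. The lists were written with earlier results of these data known. Of these, 78 passed the filter and 0 were called in either direction by limma. By unadjusted p under 0.05 there were 13 (16.7%), 5 higher and 8 lower, against 10.9% of all genes. The groups did not overlap for 16 (20.5%), against 15.6% of all genes. The median log2 difference of the 78 was -0.10, against -0.01 over all tested genes, with 29 above 0 and 49 below. The edgeR quasi-likelihood test and limma-voom also called 0, and DESeq2 called 4, against 2.48% of all genes.

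Those 4 were 2 potassium channels, a carbonic anhydrase and a chloride carrier, named after their values were seen. Kcnma1, the large-conductance calcium-activated potassium channel, held 283, 332 and 434 in the controls and 744, 683 and 575 in Klf5 LKO (limma log2 difference 0.94, adjusted p = 0.0773; DESeq2 adjusted p = 0.00566). Kcnk5, a two-pore-domain potassium channel that senses alkaline pH, held 1226, 1416 and 1859 in the controls and 1006, 901 and 1019 in Klf5 LKO (limma -0.60, adjusted p = 0.169; DESeq2 adjusted p = 0.0324). Slc12a4, a potassium-chloride carrier, held 952, 1261 and 1265 in the controls and 2443, 1627 and 1732 in Klf5 LKO (limma 0.73, adjusted p = 0.115; DESeq2 adjusted p = 0.00818). Car12, a carbonic anhydrase of the cell surface, had 34, 42 and 90 reads in the controls and 0, 12 and 0 in Klf5 LKO (limma adjusted p = 0.0935; DESeq2 adjusted p = 0.00476).

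The most abundant genes of the roles described next were not called. Among potassium channels this was Kcnk1, with 2830 ± 262 in the controls and 2886 ± 93.3 in Klf5 LKO (SD, n = 3 each). Among chloride channels it was Ano6, a calcium-activated scramblase and channel, with 8050 ± 1557 and 9661 ± 1395. For acid and base transport it was the carbonic anhydrase Car2 (12103 ± 2015 and 9923 ± 2047), and for cation-chloride carriers Slc12a7 (2557 ± 96.3 and 2581 ± 455). In cyclic AMP signalling Prkar1a, a regulatory subunit of protein kinase A, held 9854 ± 653 and 9910 ± 585. The scaffold Ezr, which ties apical membrane proteins to actin, held 13641 ± 1340 and 11173 ± 2955. Of 8 further aquaporins 6 were below the filter, and the highest, Aqp11, held 86.4, 77.4 and 75.2 in the controls and 34.5, 41.0 and 34.1 in Klf5 LKO (limma adjusted p = 0.346).

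**Figure D5:**
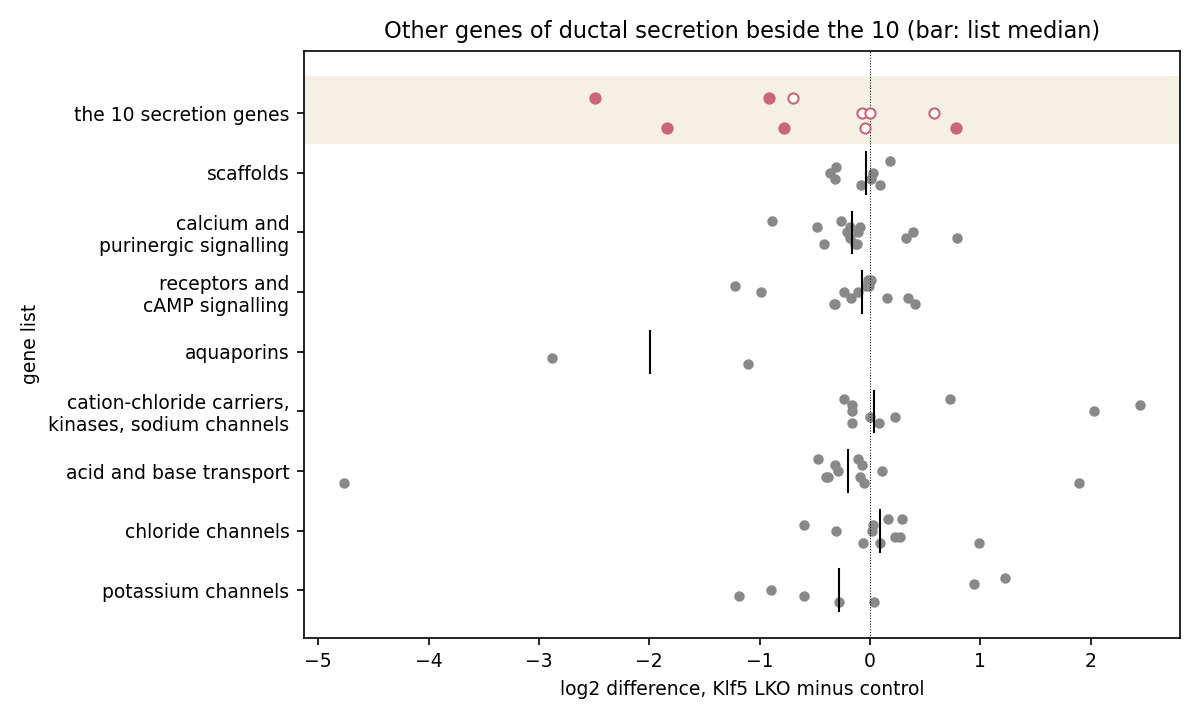
Log2 difference (Klf5 LKO minus control) of the 78 tested pathway genes by role (grey, 1 point per gene, bar at the list median) and of the 10 secretion genes (red, filled where called by limma), whose vertical offsets only separate the points. None of the grey points was called, and the lowest, Car12, has few reads.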

How the data were processed

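A low-input kit turned total RNA into cDNA that PCR amplified before single-end sequencing, per the labels' protocols. The submitters' processing notes name TopHat, Bowtie2, DESeq2 and the build mm10. Which program counted reads, and on which annotation, is not given in the sources used here. The authors deposited a signal per gene and library, a read count divided by a size factor, and a table of mean signal, log2 fold changes, Wald statistic (a score) and p-values, per the file headers. All signal values (100%) were whole multiples of 1 read within 0.001, which gave the read counts behind them.

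The genes, lists and tests were chosen with earlier results of these data known. Klf5 LKO and control were compared with limma 3.58.1 (trend, R 4.3.3) on log2(value + 1) for 13490 genes (mean signal 10 or more), two-sided, with Benjamini-Hochberg adjustment over all of them and a threshold of 0.05. The design named this fit for normalised values. The pseudocount of 1 understates changes of low genes. DESeq2 1.42.0, edgeR 4.0.16 and limma-voom were run on the recovered reads, and the script was tested on simulated data. Exon lengths and positions come from GENCODE M21 (23309 symbols matched) and promoters from RefSeq. Named genes are the 10, Klf5, called pathway genes, the most abundant gene of each role and marker list (1 role's is not reported here), and the 3 genes most like Ano1, Kcnn4 and Sctr. Outside that rule, Sct, Kcnq1ot1, Fastk, other Kcne genes, Gabrd, Tek and Lyve1 are named for their function, position or values. So are single leukocyte markers, markers at 0, Alas2 and the 4 pathway genes called by DESeq2.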

Additional observations from a re-analysis of the deposited data

How the results depend on the processing

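The number of genes called over the whole table, 88, was 335 with DESeq2, 51 with the leukocyte term and 14 (without control 2) to 105 (without Klf5 LKO 1) when 1 library was left out. The number called among the 10 secretion genes, 5, was 3 with the leukocyte term and 1 (without control 1 or 2) to 5 when 1 library was left out. The number of other pathway genes called, 0, was 4 with DESeq2, 1 with a mean of at least 50 (Kcnma1), and 0 to 1 when 1 library was left out, the 1 being Car12 without Klf5 LKO 2. The cause of these changes was not tested. Same-numbered libraries deviated from their group means with correlations of 0.185, -0.0116 and 0.106. Klf5 LKO 1 and Klf5 LKO 3 correlated best with the control of their own number, and Klf5 LKO 2 with control 3 (0.138). The labels do not say that the numbers mark pairs, so they were not taken as pairs. With the replicate block, 110 genes and 5 of the 10 were called, so no call of the 10 changed. The other scalings, pseudocounts of 0.5 and 5, no filter, edgeR, limma-voom and the endothelial term also called 5 of the 10. All log2 differences of the 10 moved by less than 1 SD between libraries under every alternative. Those of Aqp1, Kcne3, Slc4a2 and Slc12a2 changed sign under at least 1. Aqp1 rested on 19 to 220 reads per library, the lowest of the 10 genes.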
